A study of Mus musculus with 18 samples.

Results

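Hexim1, Larp7, Mepce, Cdk9, Ccnt1, Ccnt2 and Cdk12 encode factors of the switch that lets RNA polymerase II pass from a paused to an elongating state. They were taken by symbol from the deposited count table and are 7 of its 50600 gene IDs. Messenger RNA was sequenced from bone marrow-derived macrophages (BMDMs) that had been grown in GM-CSF for 8 days, in 6 groups of 3 libraries, 18 in all. WT BMDMs and BMDMs from IRF5-/- mice (IRF5 KO), which lack the transcription factor IRF5, were either unstimulated, or were given DMSO or 3.5 μM defactinib for 1 h and then LPS at 100 ng/ml for 2 h. The titles of the unstimulated samples name DMSO, but the headers of the deposited counts have UT in its place. Defactinib inhibits the tyrosine kinases PYK2 (Ptk2b) and FAK (Ptk2), and LPS, a bacterial cell wall component, activates macrophages through TLR4. The groups are named by genotype and treatment (for example WT LPS defactinib), and no group had defactinib without LPS. The loss of IRF5 is not limited to macrophages by any Cre driver named in the sources, the study gives an age range for its purchased male WT mice without tying it to these libraries, and the replicates are called biological without a link to single mice.

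P-TEFb is the kinase CDK9 bound to a T-type cyclin (cyclin T1 from Ccnt1 or cyclin T2 from Ccnt2). It phosphorylates the polymerase and the factors that hold it in a pause, and many inflammatory genes of macrophages depend on this step. A large share of P-TEFb is kept inactive in the 7SK ribonucleoprotein, in which the 7SK RNA is capped by the methyltransferase MEPCE, bound at its end by LARP7, and recruits HEXIM1, the protein that inhibits CDK9. CDK12 is a related kinase that acts later along genes. The Hexim1 transcript is known to rise in cells given agents that disturb this equilibrium, such as hexamethylene bisacetamide or inhibitors of BET bromodomains, and its level is used as a readout of them. The comparison therefore asks whether the transcript rose in BMDMs given defactinib.

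7SK RNA is the scaffold on which the products of Hexim1, Larp7 and Mepce meet. In GENCODE (GRCm38, the assembly of mm10) it is the gene Rn7sk, 331 bases at chr9:78175303-78175633 on the minus strand. The first 100 bases of the transcript are shown because HEXIM1 is known to dock on GATC repeats (GAUC in the RNA) in the hairpin at this end. The capitals mark the 3 GATC matches, which begin at bases 13, 42 and 64 and are all the matches in the transcript.
Rn7sk, first 100 bases: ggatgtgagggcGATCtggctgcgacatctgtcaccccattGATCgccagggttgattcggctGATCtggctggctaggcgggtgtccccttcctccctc

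The depth was 39282181 to 61949143 counted read pairs per library. Libraries 1 and 2 of IRF5 KO LPS DMSO differed little from each other (chi-square of 2.33 per gene) and strongly from library 3 (441 and 426). Over log2 CPM, libraries 1 and 2 correlated at 0.985 to 0.987 with the IRF5 KO LPS defactinib libraries and library 3 at 0.978 to 0.979 with the IRF5 KO unstimulated libraries. These 3 libraries bear on every comparison that uses the group and, through the shared estimate of spread, on the errors of the others, so values are also given without them where that changed a call or a direction. Whether these 3 libraries carry the right labels was not tested, and if they do not, either or both subsets of them may not be an LPS DMSO control. Irf5 was at 335 to 435 CPM (counts scaled by library depth) in the 9 IRF5 KO libraries and at 213 to 650 CPM in the 9 WT libraries, so that its total count does not separate the genotypes. The deleted exons were not analysed here. Ptk2b, the target of defactinib that macrophages are known for, was at 101 to 186 CPM and Ptk2 at 15.3 to 43.5 CPM. Macrophage markers were present in every library (8 genes, none without counts). They summed to 11740 to 12440 CPM in WT LPS DMSO and 13490 to 17330 CPM in WT LPS defactinib, to 11400 to 14700 CPM and 20270 to 21240 CPM in these groups of IRF5 KO, and to 12050 to 16530 CPM in the unstimulated libraries. Markers of T, B and NK cells summed to at most 2.10 CPM and those of mast cells and basophils to at most 1.53 CPM. Neutrophil markers (6 genes, 3 or 4 of them under 1 CPM in each group) summed to 42.4 to 58.5 CPM in WT unstimulated, 50.1 to 60.5 CPM in IRF5 KO unstimulated and 89.6 to 170.4 CPM in the groups with LPS.

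All 7 genes passed the filter on low counts and were tested. Levels are given as CPM with TMM scaling. Divided also by gene length (RPKM), which lets genes be compared, Cdk9 had the highest mean level over the 18 libraries (19.8 RPKM), followed by Larp7 (13.8), Hexim1 (7.73), Ccnt1 (6.79), Mepce (5.33), Cdk12 (5.05) and Ccnt2 (3.11). These levels lie between the 49.4th and the 82.9th percentile of the tested genes. The genes differed in how far they ranged. The highest library was 8.29 times the lowest for Hexim1, 8.07 times for Mepce, 7.06 times for Ccnt1 and 4.60 times for Cdk12, but 2.30 times for Ccnt2, 2.09 times for Larp7 and 1.92 times for Cdk9. Annotated genes inside their spans on the same strand (Mir2861 and Mir3960 in Cdk9, Gm27399 and Mir5119 in Cdk12) held at most 10 read pairs in any library. The lowest count of any of the 7 genes in any library was 174 read pairs, for Mepce.

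**Figure D1:**
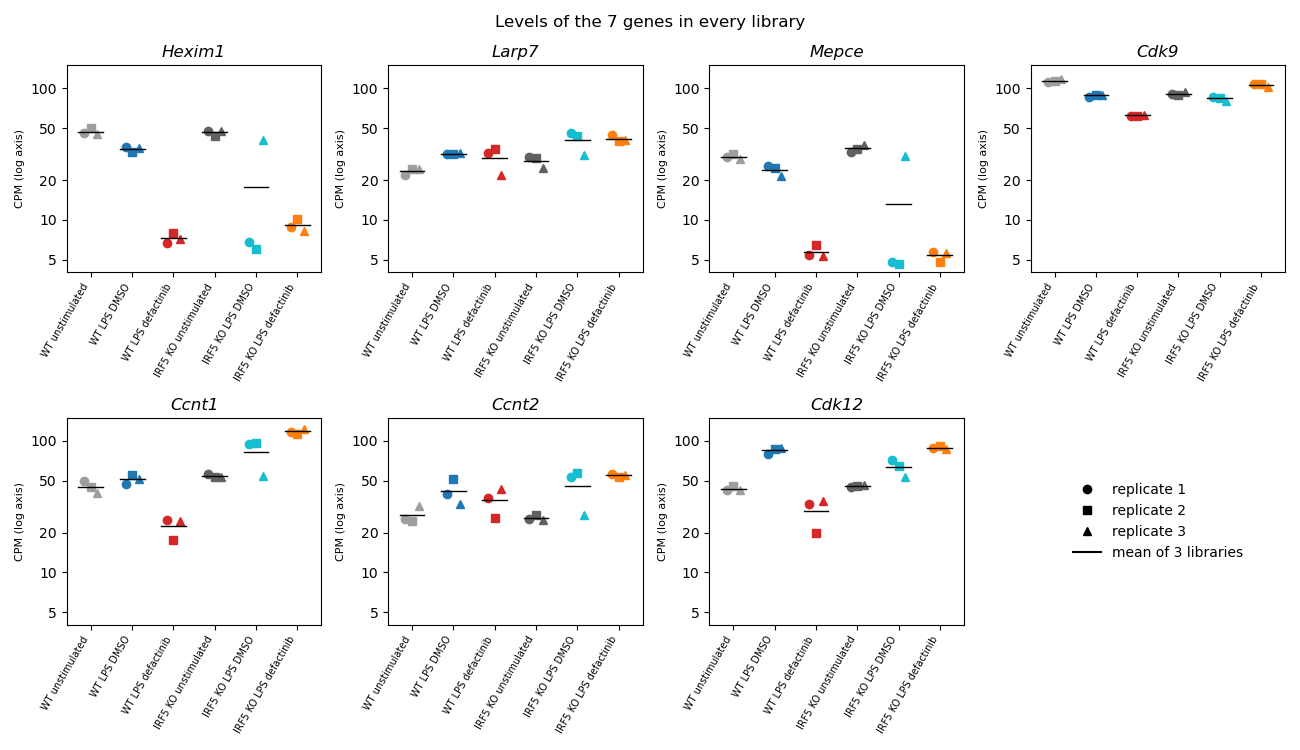
CPM of each gene in every library (y axis, log scale) by group (x axis), where circles, squares and triangles are replicates 1, 2 and 3 and lines are group means. Hexim1 lies at 6.04 to 10.3 CPM and Mepce at 4.61 to 6.50 CPM in both defactinib groups and in replicates 1 and 2 of IRF5 KO LPS DMSO, while Ccnt1 and Cdk12 are low with defactinib in WT and high with it in IRF5 KO.

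Hexim1 did not rise with defactinib in WT BMDMs. Given LPS, these cells had lower Hexim1, Mepce, Cdk12 and Ccnt1 with defactinib by more than 2-fold and lower Cdk9 by less, and Ccnt2 and Larp7 did not pass the test. Thus 4 of the 7 genes were called lower (an adjusted p below 0.05 with more than a 2-fold difference) and none higher. Of all 15663 genes tested in this comparison, 29.1% were called, 18.6% lower and 10.4% higher (15.5% and 15% under scaling by library size alone). Without the fold threshold 5 of 7 were lower, against 57.0% of genes that passed in either direction and 28.6% that passed as lower. The median log2 fold change of the 7 genes was -1.20 and that of all tested genes was 0.09. The same 4 genes were called without the IRF5 KO LPS DMSO group (30.5% of genes called) and with any 1 library of the 18 left out, and 3 of the 4 under scaling by library size alone, where Ccnt1 missed the fold threshold. Markers of dendritic cells (6 genes, none without counts and 1 or 2 under 1 CPM in each group) summed to 373.9 to 485.4 CPM in WT LPS DMSO and to 62.8 to 122.9 CPM in WT LPS defactinib, against 208.9 to 273.9 CPM and 267.2 to 278.3 CPM in IRF5 KO and 109.6 to 166.9 CPM in the unstimulated libraries. Of the 5 dendritic cell markers tested, 1 was called higher and 2 lower with defactinib in WT. Log2 fold changes ran from -3.745 to 1.424 with a median of 0.034, so that the sum does not stand for each marker. The part of these cells in the differences of the 7 genes was not tested. In bulk RNA, fewer cells of a type and less RNA per cell cannot be told apart.

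Hexim1 (ENSMUSG00000048878, chr11:103116231-103119725, plus strand) is a gene of 1 exon of 3495 bases, and its product holds CDK9 inactive on 7SK RNA. In WT BMDMs with LPS it was at 35.7, 33.1 and 35.0 CPM with DMSO and at 6.72, 7.92 and 7.19 CPM with defactinib. The groups did not overlap. The log2 fold change was -2.25 (SE 0.51, edgeR adjusted p = 0.00171). Without the IRF5 KO LPS DMSO group, whose 3 libraries spread from 6.04 to 40.7 CPM and widen the shared error, the log2 fold change was -2.23 with an SE of 0.10 (adjusted p = 2.47e-11).

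Mepce (ENSMUSG00000029726, chr5:137781906-137787655, minus strand), which encodes the enzyme that caps 7SK RNA, followed Hexim1. Its levels were 25.7, 24.9 and 21.6 CPM with DMSO and 5.42, 6.50 and 5.34 CPM with defactinib in WT BMDMs. The log2 fold change was -2.06 (SE 0.51, edgeR adjusted p = 0.00323), and without the IRF5 KO LPS DMSO group it was -2.04 (SE 0.11, adjusted p = 3.57e-10). Larp7 (ENSMUSG00000027968, chr3:127536714-127553349, minus strand), which encodes the protein that protects the end of 7SK RNA, stood apart from both. It was at 31.7, 31.6 and 32.1 CPM with DMSO and at 32.5, 34.5 and 21.9 CPM with defactinib. The defactinib libraries lay on both sides of the DMSO libraries, and the log2 fold change was -0.10 (SE 0.16, edgeR adjusted p = 0.591). Per length, Mepce was at 0.504 ± 0.050 times the level of Larp7 with DMSO and at 0.133 ± 0.027 times with defactinib (SD, n = 3).

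The sequence upstream of Hexim1, which fell, is shown beside that of Larp7, which did not pass the test in WT BMDMs. Both are from RefSeq (GRCm38.p6) and end at the base before the gene's first annotated base, so that Hexim1 is shown over 156 bases (chr11:103116075-103116230, plus strand) and Larp7 over 250 bases (chr3:127553350-127553599, minus strand). Capitals mark 5 motifs on either strand: the SP1 box (GGGCGG), the box named CCAAT after its letters, the core of ETS sites, which reads CCGGAA, the TATA box in its TATAAA form, and the cyclic AMP response element (TGACGTCA).
Hexim1 upstream: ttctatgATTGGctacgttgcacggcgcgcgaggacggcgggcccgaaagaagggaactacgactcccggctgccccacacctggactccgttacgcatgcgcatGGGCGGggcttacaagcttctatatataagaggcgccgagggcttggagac
Larp7 upstream: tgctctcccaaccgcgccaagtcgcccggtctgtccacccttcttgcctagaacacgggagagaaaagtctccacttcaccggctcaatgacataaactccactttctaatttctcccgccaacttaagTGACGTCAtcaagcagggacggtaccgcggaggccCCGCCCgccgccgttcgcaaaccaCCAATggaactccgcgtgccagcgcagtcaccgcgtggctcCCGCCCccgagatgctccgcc

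RefSeq promoters of 300 bases (250 before to 50 after the start) were found for 6 of the 7 genes, all but Mepce. All 6 held GGGCGG, which 35.7% of 32851 mouse promoters of the same length hold on either strand. CCAAT was in 4 of the 6 (Hexim1, Cdk9, Ccnt2 and Larp7) and in 37.4% of all promoters. CCGGAA was in 3 (Cdk9, Ccnt1 and Ccnt2) and in 14.9% of all. TGACGTCA was in Larp7, with 2 matches, and in 1.8% of all. None of the 6 windows held TATAAA (13.6% of all), CACGTG (7.2%) or TGACTCA (5.2%), which says only that these letters are not in these windows. Only TATAAA was searched for as a TATA box, and the Hexim1 sequence shown holds tatataag near its end, which was not counted. The 6 windows were 61.0% to 78.3% G and C, against a median of 52.7% over all promoters. The members that fell and those that did not are not set apart by GGGCGG, which all 6 windows hold.

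Cdk9 (ENSMUSG00000009555, chr2:32705784-32713076, minus strand), the kinase itself, was at 86.8, 89.8 and 89.3 CPM in WT LPS DMSO and at 62.1, 61.8 and 63.4 CPM in WT LPS defactinib. The groups did not overlap and the replicates were close, so that a log2 fold change of -0.51 passed the test (SE 0.07, edgeR adjusted p = 1.2e-05) without reaching 2-fold. Ccnt1 (ENSMUSG00000011960, chr15:98538689-98570923, minus strand), the cyclin that most P-TEFb carries, was at 47.5, 55.1 and 51.3 CPM with DMSO and at 25.1, 17.5 and 24.6 CPM with defactinib. Its log2 fold change was -1.20 (SE 0.18, edgeR adjusted p = 5.99e-05). Ccnt2 (ENSMUSG00000026349, chr1:127774164-127808061, plus strand), the alternative cyclin, was at 39.2, 51.7 and 33.0 CPM with DMSO and at 36.6, 26.2 and 43.3 CPM with defactinib. These groups overlapped, and the log2 fold change was -0.22 (SE 0.24, edgeR adjusted p = 0.43). Per length, Ccnt1 was at 1.72 ± 0.34 times the level of Ccnt2 in WT LPS DMSO and at 0.863 ± 0.086 times in WT LPS defactinib (SD, n = 3).

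Cdk12 (ENSMUSG00000003119, chr11:98203059-98278504, plus strand), the kinase that keeps polymerase moving along long genes, was at 79.9, 87.0 and 88.6 CPM in WT LPS DMSO. With defactinib it was at 33.4, 19.97 and 34.9 CPM, below every DMSO library. The log2 fold change was -1.53 (SE 0.16, edgeR adjusted p = 1.69e-06). Cdk12 has the longest span of the 7 genes (75446 bases) and Hexim1 the shortest (3495 bases). Over all tested genes in quartiles of span, the median log2 fold change with defactinib in WT BMDMs went from 0.28 in the shortest through 0.10 and 0.02 to -0.04 in the longest. Hexim1, in the shortest quartile, and Mepce, in the next, had the largest falls of the 7.

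**Figure D2:**
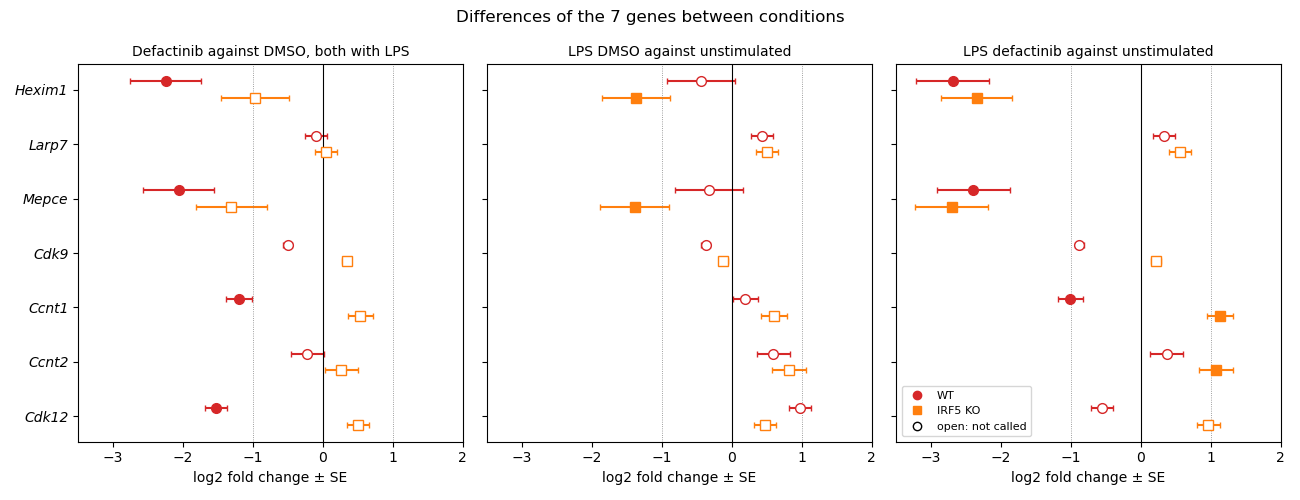
Log2 fold change ± SE (x axis) of each gene (y axis) for defactinib against DMSO with LPS, LPS DMSO against unstimulated, and LPS defactinib against unstimulated, in WT (circles) and IRF5 KO (squares), where filled symbols are called. In the left panel Hexim1, Mepce, Ccnt1 and Cdk12 are filled on the negative side in WT and no IRF5 KO symbol is filled.

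In IRF5 KO BMDMs defactinib changed none of the 7 genes by the full rule, at which 0.919% of all genes were called, and changed Cdk9 alone of the 7 without the fold threshold, at which 3.36% passed. Without library 3, 2 of the 7 genes passed that looser rule (Cdk9 and Hexim1, against 7.83% of genes), and without libraries 1 and 2, 6 did, all but Larp7 (against 41.0%). Cdk9 was higher, at 86.2, 85.3 and 80.4 CPM with DMSO and 108, 108 and 103 CPM with defactinib (log2 fold change 0.34, SE 0.07, edgeR adjusted p = 0.0167). At an unadjusted p under 0.05, 4 of the 7 genes passed in edgeR. The share of all genes at this rule was not computed, so this count and those by unadjusted p below have no background. DESeq2 called none of the 5 genes it gave an adjusted p, and without its outlier filter it called Mepce. Values for Hexim1 and Mepce rest on which DMSO libraries are used. Without libraries 1 and 2 the DMSO group is library 3 alone, which the fit assumes to vary like the other groups, here and in every value below that leaves them out. Hexim1 was at 6.76, 6.04 and 40.7 CPM in the IRF5 KO LPS DMSO libraries 1, 2 and 3 and at 8.82, 10.3 and 8.31 CPM with defactinib. Its log2 fold change was -0.97 (SE 0.49, edgeR adjusted p = 0.247) with all libraries, 0.51 (SE 0.11, adjusted p = 0.00914) without library 3, and -2.17 (SE 0.12, adjusted p = 1.93e-09) without libraries 1 and 2. Thus the direction turned with the library.

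Mepce in IRF5 KO was at 4.80, 4.61 and 30.5 CPM with DMSO and at 5.66, 4.82 and 5.66 CPM with defactinib. Its log2 fold change was -1.31 (SE 0.50, edgeR adjusted p = 0.138) with all libraries, 0.19 (adjusted p = 0.361) without library 3 and -2.52 (adjusted p = 1.93e-09) without libraries 1 and 2. Ccnt1 was at 95.7, 96.4 and 53.9 CPM with DMSO and at 118, 114 and 124 CPM with defactinib, so that every defactinib library was above every DMSO library (log2 fold change 0.53, SE 0.18, edgeR adjusted p = 0.0968). Without libraries 1 and 2 it was called higher at 1.12, and without library 3 it was 0.30 (adjusted p = 0.155). Cdk12 was at 71.9, 64.4 and 52.9 CPM with DMSO and at 88.7, 91.9 and 86.3 CPM with defactinib, which also do not overlap (log2 fold change 0.50, SE 0.16, edgeR adjusted p = 0.0828). It was 0.39 (adjusted p = 0.143) without library 3 and 0.73 (adjusted p = 0.00775) without libraries 1 and 2. Ccnt2 and Larp7 overlapped between the groups, at 0.26 (adjusted p = 0.535) and 0.05 (adjusted p = 0.883). Ccnt2 was -0.004 without library 3 and 0.99 (adjusted p = 0.00558) without libraries 1 and 2, and Larp7 was -0.10 and 0.39 (adjusted p = 0.112). Library 3 alone as the DMSO group gave 3 called genes (Hexim1 and Mepce lower, Ccnt1 higher) against 19.2% of all genes, and libraries 1 and 2 gave none against 1.45%.

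**Figure D3:**
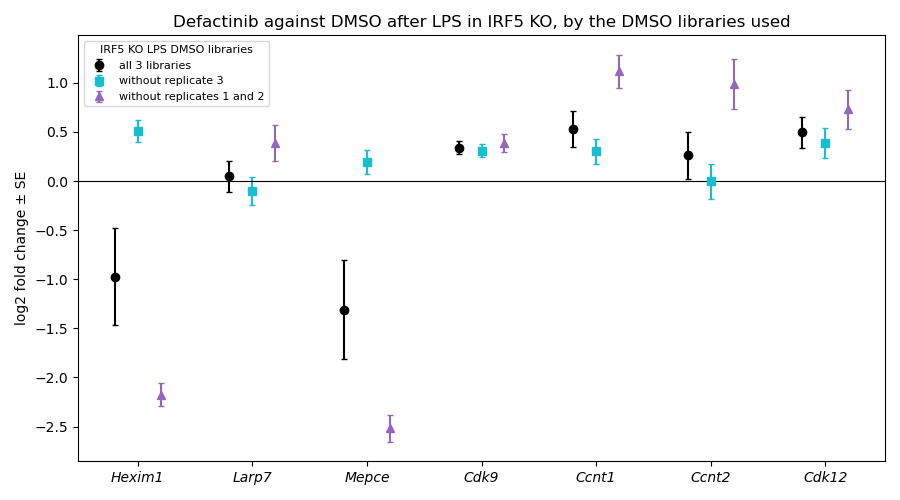
Log2 fold change ± SE (y axis) of each gene (x axis) for defactinib against DMSO after LPS in IRF5 KO, with all 3 DMSO libraries (circles), without replicate 3 (squares) and without replicates 1 and 2 (triangles). Hexim1 goes from 0.51 to -2.17 and Mepce from 0.19 to -2.52, whereas Cdk9 stays between 0.31 and 0.39.

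The response to defactinib was compared between genotypes by the interaction, the log2 fold change in WT less that in IRF5 KO. It was called for Cdk12 and Ccnt1 among the 7 genes, against 22.8% of all genes, and passed without the fold threshold for Cdk9 too, against 37.0%. The interaction of Cdk12 was -2.03 (SE 0.22, edgeR adjusted p = 6.09e-06), that of Ccnt1 was -1.73 (SE 0.26, adjusted p = 9.2e-05) and that of Cdk9 was -0.84 (SE 0.09, adjusted p = 5.06e-06). All 3 were lower with defactinib in every WT library and higher with it in every IRF5 KO library. They kept this sign and passed the test with either subset of the IRF5 KO LPS DMSO libraries, at -1.92 and -2.25 for Cdk12, -1.50 and -2.30 for Ccnt1 and -0.82 and -0.88 for Cdk9. The interaction of Hexim1 was -1.28 (adjusted p = 0.165) with all libraries, -2.76 (adjusted p = 8.75e-11) without library 3 and -0.06 (adjusted p = 0.839) without libraries 1 and 2. For Mepce these values were -0.75, -2.26 and 0.47, and for Ccnt2 they were -0.48, -0.22 and -1.20 (adjusted p = 0.00618). Thus 4 genes were called in the interaction without library 3 (31.6% of genes) and 3 without libraries 1 and 2 (19.1%). The defactinib groups hold none of the doubted libraries, which enter their comparison through the shared error. Between them, Ccnt1 (log2 fold change -2.40, SE 0.19, edgeR adjusted p = 1.18e-07) and Cdk12 (-1.60, SE 0.16, adjusted p = 1.62e-06) were called lower in WT than in IRF5 KO, against 17.3% of genes called. Without the fold threshold Cdk9, Ccnt2 and Larp7 were lower too, so that 5 of 7 passed, against 36.3%. Hexim1 (-0.33, SE 0.50, adjusted p = 0.639) and Mepce (0.10, adjusted p = 0.90) did not. Without the IRF5 KO LPS DMSO group Hexim1 passed too (-0.31, SE 0.10, adjusted p = 0.0162), so that 6 of 7 were lower, against 49.4% of genes that passed in either direction.

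LPS with DMSO against unstimulated called none of the 7 genes in WT BMDMs by edgeR, where 21.3% of genes were called, while limma-voom called none and DESeq2 called Cdk12. Without the fold threshold 3 passed, against 41.8% of genes, and without the IRF5 KO LPS DMSO group 6 did (3 higher and 3 lower), against 52.4%. Cdk12 rose from 42.5, 45.2 and 42.2 CPM unstimulated to 79.9, 87.0 and 88.6 CPM (log2 fold change 0.98, SE 0.16, edgeR adjusted p = 0.000128), just under 2-fold. Larp7 rose by 0.43 from 21.95, 24.3 and 24.5 CPM (adjusted p = 0.0373), and Cdk9 fell by 0.38 from 112, 114 and 119 CPM (adjusted p = 0.000226). At an unadjusted p under 0.05, 4 of the 7 passed. Hexim1 was at 46.0, 50.1 and 44.9 CPM unstimulated, above every WT LPS DMSO library, with a log2 fold change of -0.44 that did not pass (SE 0.48, adjusted p = 0.502). Without the IRF5 KO LPS DMSO group it was -0.44 with an SE of 0.09 (adjusted p = 0.000609), past the test and under 2-fold. Mepce (-0.33, adjusted p = 0.0144) and Ccnt2 (0.59, adjusted p = 0.00827) passed in that fit as well.

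In IRF5 KO BMDMs LPS with DMSO called Hexim1 (log2 fold change -1.37, SE 0.49, edgeR adjusted p = 0.0398) and Mepce (-1.39, SE 0.50, adjusted p = 0.0392) lower, against 13.3% of genes, and 6 of 7 passed without the fold threshold, against 37.5%. Both calls lay near the threshold. They were lost when any 1 of 14 of the 18 libraries was left out, with no filter on low counts and in a fit of the compared groups alone, and the values turned on libraries 1 and 2. Unstimulated levels were 47.6, 43.8 and 47.5 CPM for Hexim1 and 33.1, 34.6 and 37.2 CPM for Mepce, and library 3, at 40.7 and 30.5 CPM, lay close under them. Without libraries 1 and 2 the log2 fold changes were -0.17 (adjusted p = 0.574) and -0.18 (adjusted p = 0.596), and none of the 7 genes was called (2.71% of all genes were) or passed without the fold threshold (4.76%). Without library 3 they were -2.86 and -2.90, and 3 genes were called, against 26.2%. The interaction of genotype with LPS called none of the 7, against 9.83% of genes, and none passed without the fold threshold, against 17.1%. In that interaction 2 of the 7 genes (Cdk9 and Cdk12) had an unadjusted p under 0.05 in edgeR, DESeq2 and limma-voom called none, and without library 3 Hexim1 and Mepce were called, against 23.6% of genes, with Ccnt1 (-0.64, adjusted p = 0.00458) and Cdk9 (-0.28, adjusted p = 0.0149) passing below 2-fold. At LPS DMSO itself none of the 7 was called between WT and IRF5 KO, against 25.8% of genes, with 2 passing without the fold threshold (Ccnt1 and Cdk12), against 52.2%. Ccnt1 went from -0.68 to -0.09 (adjusted p = 0.704) without libraries 1 and 2, and Cdk12 from 0.43 to 0.32 (adjusted p = 0.078) without library 3. At an unadjusted p under 0.05, 3 passed in edgeR, DESeq2 called none, and limma-voom, like edgeR without library 3, called Hexim1 and Mepce, against 25.0% and 34.5% of genes.

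Comparing LPS defactinib with unstimulated libraries gives both genotypes side by side, and the IRF5 KO LPS DMSO libraries enter through the shared error. The comparisons share their unstimulated or defactinib libraries with those above. In WT, Hexim1 (log2 fold change -2.69, SE 0.52, edgeR adjusted p = 0.000701), Mepce (-2.39, SE 0.52, adjusted p = 0.00159) and Ccnt1 (-1.005, SE 0.18, adjusted p = 0.000397) were called lower, against 24.9% of genes called, and 5 of 7 passed without the fold threshold, against 53.2%. Ccnt1 was at the edge of the fold threshold and lost its call by DESeq2, with DESeq2 size factors, with a filter of 5 CPM, in a fit of the compared groups alone and with any 1 of 10 of the 18 libraries left out. Without the IRF5 KO LPS DMSO group it was -0.99, so that 2 genes were called lower (25.9% of genes called), with Hexim1 at -2.67 (SE 0.10), and 6 of 7 passed without the fold threshold (61.3%), Larp7 (0.35, adjusted p = 0.0319) among them. In IRF5 KO, Hexim1 (-2.34, SE 0.51, adjusted p = 0.00157) and Mepce (-2.70, SE 0.52, adjusted p = 0.000747) were called lower, and Ccnt1 (1.13, SE 0.18, adjusted p = 0.000205) and Ccnt2 (1.08, SE 0.24, adjusted p = 0.00163) higher, against 16.2% of genes called lower and 7.85% called higher, and all 7 passed without the fold threshold, against 53.4%. Hexim1 and Mepce thus fell in both genotypes, whereas Ccnt1 fell in WT and rose in IRF5 KO. Among unstimulated libraries none of the 7 was called between WT and IRF5 KO, against 7.31% of genes. There Cdk9 passed without the fold threshold, higher in WT at 112, 114 and 119 CPM against 90.4, 89.3 and 94.3 CPM (log2 fold change 0.33, SE 0.07, edgeR adjusted p = 0.00218), against 15.3% of genes. It was also the 1 gene with an unadjusted p under 0.05 in edgeR, and DESeq2 and limma-voom called none.

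The order of the groups differed by gene. For Hexim1 the unstimulated groups were highest (47.0 ± 2.8 CPM in WT and 46.3 ± 2.2 CPM in IRF5 KO, SD, n = 3, overlapping), WT LPS DMSO followed at 34.6 ± 1.3 CPM, and IRF5 KO LPS defactinib (9.13 ± 1.01 CPM) and WT LPS defactinib (7.28 ± 0.60 CPM) were lowest and did not overlap each other. IRF5 KO LPS DMSO ran from 6.04 to 40.7 CPM, overlapped WT LPS DMSO and both defactinib groups and lay below both unstimulated groups. For Ccnt1 the order ran from IRF5 KO LPS defactinib (118 ± 5 CPM) down to WT LPS defactinib (22.4 ± 4.2 CPM), which are the highest and the lowest group of the 6. For Cdk12, IRF5 KO LPS defactinib (88.9 ± 2.8 CPM) and WT LPS DMSO (85.2 ± 4.6 CPM) were highest and overlapped, and WT LPS defactinib (29.4 ± 8.2 CPM) was lowest.

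Across the 18 libraries 2 pairs of genes had the highest positive correlations. Over log2 CPM, which shares library scaling between genes, Hexim1 and Mepce correlated at r = 0.989 (0.986 in the 15 libraries outside IRF5 KO LPS DMSO) and Ccnt1 and Cdk12 at 0.829 (0.835). Hexim1 was near 0 with Ccnt1 (-0.13) and Cdk12 (-0.01) and negative with Ccnt2 (-0.70) and Larp7 (-0.62). The most negative pair was Ccnt2 and Mepce (r = -0.73, and -0.83 by ranks). These are descriptions, since the libraries are groups of replicates. The Hexim1 to Cdk9 ratio per length, inhibitor to kinase, was 0.540 ± 0.041 in WT unstimulated, 0.516 ± 0.028 in WT LPS DMSO and 0.154 ± 0.014 in WT LPS defactinib (SD, n = 3). In IRF5 KO it was 0.669 ± 0.024 unstimulated and 0.113 ± 0.010 with LPS and defactinib, and 0.104, 0.0935 and 0.669 in the 3 LPS DMSO libraries. The ratio is of transcripts, and protein was not measured here. Of the 8458 genes whose mean log2 CPM reached 3, those most like Hexim1 in pattern were Sema4d (r = 0.993), Midn (0.993), Mepce (0.989), Nab2 (0.987) and Tirap (0.987). In the 15 libraries outside IRF5 KO LPS DMSO they ranked at 3, 4, 9, 6 and 16.

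**Figure D4:**
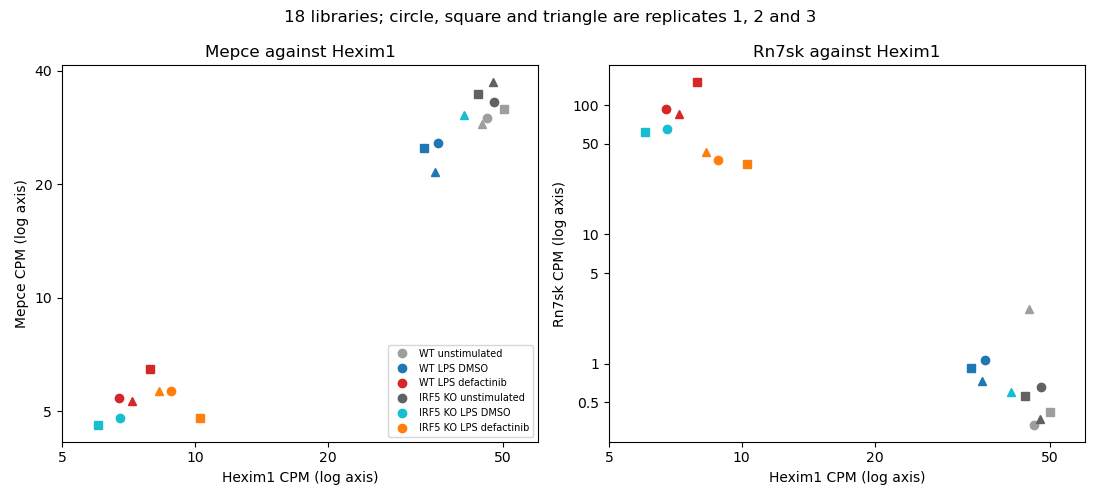
Mepce CPM (left, y axis) and Rn7sk CPM (right, y axis) against Hexim1 CPM (x axis) in the 18 libraries, all axes log. The LPS defactinib libraries and replicates 1 and 2 of IRF5 KO LPS DMSO have Mepce at 4.61 to 6.50 CPM and Rn7sk at 34.8 to 149.5 CPM, and the other libraries have Mepce at 21.6 to 37.2 CPM and Rn7sk at 0.337 to 2.66 CPM.

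Counts of 7SK RNA moved against Hexim1 and Mepce. Rn7sk was at 1.07, 0.921 and 0.737 CPM in WT LPS DMSO and at 92.5, 149.5 and 85.8 CPM in WT LPS defactinib (log2 fold change 6.90, SE 1.19, edgeR adjusted p = 0.000207). In IRF5 KO it was at 65.3, 61.4 and 0.607 CPM in the LPS DMSO libraries 1, 2 and 3 and at 37.3, 34.8 and 43.2 CPM with defactinib (log2 fold change -0.14, SE 0.88, adjusted p = 0.944, but 5.96 without libraries 1 and 2 and -0.72 without library 3), and the unstimulated libraries were at 0.337 to 2.66 CPM. 7SK is made by RNA polymerase III and has no poly(A) tail, so its count in a messenger RNA library need not follow its amount in the cell. Of 4 other RNAs, chosen after the values of Rn7sk were seen, 3 separated the same libraries without overlap. Gm26917, a long noncoding RNA, was at 11390 to 41940 CPM in the LPS defactinib libraries and in those 2, and at 47.0 to 142.5 CPM in the other 10. Malat1, a nuclear noncoding RNA, was at 317.5 to 985.5 CPM in the former and at 107 to 292 CPM in the latter, and Rnu12, the U12 spliceosomal RNA, was at 0.694 to 10.8 CPM and at 0 to 0.0677 CPM. Rpph1, the RNA of RNase P, was at 0.672 to 5.39 CPM and at 0.0562 to 0.949 CPM, which overlap. Their part in the falls of Hexim1 and Mepce was not tested.

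The rest of the elongation machinery was read from 7 further lists. Among 14 other genes of the 7SK particle and of P-TEFb release, 1 was called higher (Rn7sk) and 2 lower with defactinib in WT BMDMs, Brd2 and Srsf2, with a median log2 fold change of -0.04. The counts of this and the next 6 lists in WT stand against the 10.4% of all genes called higher and 18.6% called lower, with a median of 0.09. Brd2, a BET bromodomain protein, fell from 774, 754 and 733 CPM to 203, 149 and 181 CPM (log2 fold change -2.08, SE 0.11, edgeR adjusted p = 1.32e-09), and Srsf2, a splicing factor that joins the 7SK particle, by 1.02 on the log2 scale. The most abundant of the list were Ppp1ca, a phosphatase subunit (0.41, adjusted p = 0.00721), and Hnrnpa2b1, a 7SK-binding protein (0.06, adjusted p = 0.63). Hexim2, the paralog of Hexim1, was at 0.58 (SE 0.30, adjusted p = 0.105) in WT. In IRF5 KO it went from 1.75, 1.43 and 1.17 CPM to 0.436, 0.493 and 0.584 CPM (-1.53, SE 0.31, adjusted p = 0.0204). There it was the 1 gene of this list called, against 0.919% of all genes, and was named after its value was seen. Without library 3 it was again the 1 gene called (-1.67), against 1.45% of all genes. Without libraries 1 and 2, where the DMSO group is 1 library, Hexim2 was at -1.25 and other genes of the list were called too.

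The super elongation complex, which brings P-TEFb to paused polymerase, had 3 of 9 tested genes called lower and none higher in WT (median -0.64). Aff1, its scaffold, fell from 410, 455 and 405 CPM to 96.0, 67.9 and 137 CPM (log2 fold change -2.08, SE 0.19, edgeR adjusted p = 3.91e-07), Ell2, an elongation factor, fell by 1.23, and Aff4, another scaffold, fell by 1.16. Eaf1, which binds ELL proteins, was at -0.29 (adjusted p = 0.0177). Of 17 pausing and elongation factors 4 were called lower and none higher (median -0.23), Iws1 by 1.18, Leo1 by 1.18, Ctr9 by 1.04 and Nelfa by 1.01. Leo1 and Ctr9 belong to the PAF complex and Nelfa to the pausing complex NELF. Ssrp1 (0.41) and Supt4a (0.56), the most abundant, passed as higher without reaching 2-fold.

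Among 11 other transcription kinases and cyclins 2 were called lower, Ccnl1 (-1.83, SE 0.20, edgeR adjusted p = 1.99e-06) and Cdk7 (-1.17, SE 0.14, adjusted p = 5.46e-06), the kinase of TFIIH, and none higher (median -0.22). Cdk11b (0.53) passed below 2-fold and Ccnl2 (-0.27, adjusted p = 0.445) did not pass. Of 12 RNA polymerase II subunits 1 was called higher (Polr2i, 1.11, SE 0.14, adjusted p = 1.08e-05), none lower and a median of 0.21. Polr2g (-0.26) and Polr2f (0.40), the most abundant, passed below 2-fold. In IRF5 KO BMDMs none of the genes on the kinase, polymerase, super elongation and pausing lists was called, against 0.919% of all genes, and without library 3 none was. Without libraries 1 and 2, 3 kinases and cyclins were called higher and 1 gene of the super elongation complex lower, against 4.63% and 14.6% of all genes.

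Both remaining lists hold transcripts known to depend on these kinases. Of 8 short-lived mRNAs, 2 were called higher with defactinib in WT, the immediate-early gene Ier2 (log2 fold change 2.76, SE 0.57, edgeR adjusted p = 0.000821) and Zfp36, which encodes an mRNA decay factor (2.08, SE 0.46, adjusted p = 0.0015), and 1 lower, the survival gene Mcl1 (-1.70, SE 0.17, adjusted p = 9.18e-07), with a median of -0.63. Nfkbia (-0.84) and Junb (-0.43, adjusted p = 0.269) were the most abundant. Of 9 DNA repair genes that are known to need CDK12, Brca1 (-1.53, SE 0.19, adjusted p = 8.72e-06) and Atm (-1.24, SE 0.17, adjusted p = 2.06e-05) were called lower and Chek1 (1.32, SE 0.25, adjusted p = 0.000393) higher, with a median of -0.53. In IRF5 KO none of either list was called with all libraries, against 0.919% of all genes, or without library 3, against 1.45%. Without libraries 1 and 2, where the DMSO group is 1 library, both lists held called genes. In WT genes thus moved both ways on both lists. Without the IRF5 KO LPS DMSO group the calls in WT were as counted here on every list but those of 7SK release, where 1 rather than 2 was lower, and of pausing factors, where 3 rather than 4 were. Under scaling by library size alone Srsf2, Aff4, Cdk7 and all 4 pausing factors (Iws1 at -0.98 and Leo1 at -0.98) lost their calls, and Nelfcd, another NELF subunit, was called higher.

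**Figure D5:**
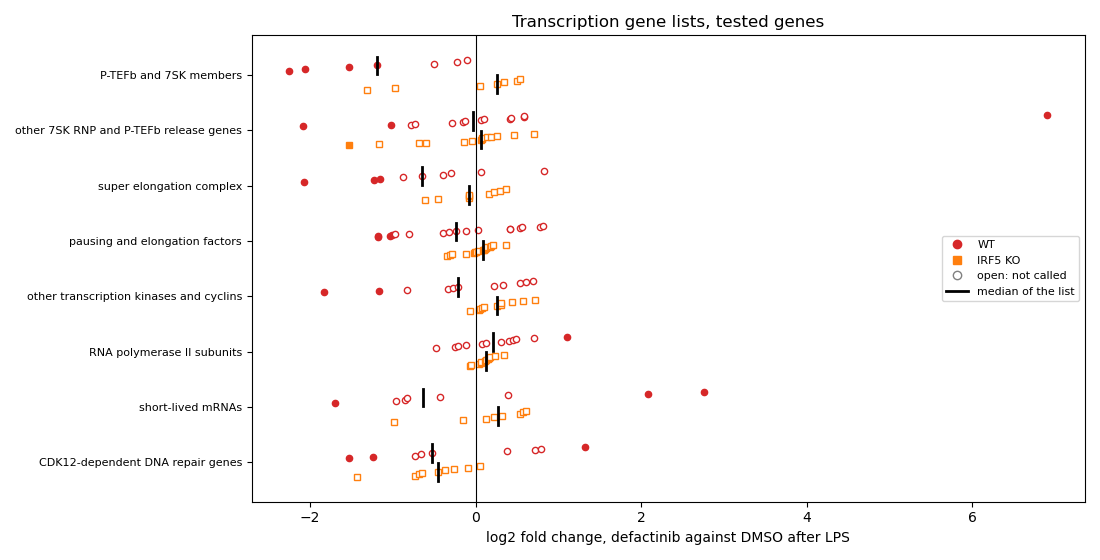
Log2 fold change with defactinib against DMSO after LPS (x axis) of every tested gene of the 8 lists (rows), in WT (circles) and IRF5 KO (squares), where filled symbols are called and black bars are list medians. The P-TEFb and 7SK genes have a WT median of -1.20, and the lone symbol at 6.90 is Rn7sk.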

How the data were processed

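The deposited table holds counts: the authors aligned 150 bp read pairs to mm10 with STAR (at most 2 mismatches) and counted uniquely mapped pairs over exons per gene with featureCounts 1.6.3, reverse stranded. Their depths are 39282181 to 61949143 pairs per library (median 45317217). Symbols were matched for 50376 of 50600 gene IDs. From the counts, CPM with TMM scaling, RPKM and tests were computed with edgeR 4.0.16 (R 4.3.3): a robust quasi-likelihood F test, two-sided, of 1 mean per group over all 18 libraries, on 15663 genes kept by filterByExpr, with Benjamini-Hochberg adjustment over them. A gene was called where its adjusted p was under 0.05 with more than a 2-fold change, the rule of the study, which used DESeq2. SE is the log2 fold change over the square root of F. The script was tested on simulated data. Alternatives used DESeq2 1.42.0, limma-voom 3.58.1, other scalings, filters and left-out libraries. Replicate numbers were not taken as pairs (median correlation of same-numbered residuals 0.005 over 45 pairs, above 0.1 in 4).

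The 7 genes, the gene lists and the alternatives were chosen with earlier results of these data known. Named besides the 7 were, from each list, the 2 genes with the highest mean RPKM and up to 2 called genes with the largest change with defactinib in WT, and the 5 genes most like Hexim1; further called genes of counts up to 5 (Srsf2, Aff4, Ctr9, Nelfa, Mcl1 and Hexim2) were named after their values were seen. Of the genes the rule names, 1 is not reported here. Lists were written from general knowledge and got no test of their own. P-values measure the spread between libraries called biological replicates. That spread was uneven. Outside IRF5 KO LPS DMSO the chi-square per gene ran from 3.82 (WT unstimulated 1 and 2) to 183 (WT LPS defactinib 2 and 3). How the replicates are related was not tested. Promoters are from RefSeq (GRCm38.p6) and other coordinates from GENCODE and the deposited table (mm10).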

Additional observations from a re-analysis of the deposited data

Results flagged for a closer look

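The response to defactinib after LPS differed between WT and IRF5 KO BMDMs, by the test of the difference itself, for 3 of the 7 genes. Of all genes 37.0% passed this test, which has no fold threshold. The difference in log2 fold change was -0.84 for Cdk9, -1.73 for Ccnt1 and -2.03 for Cdk12. The IRF5 KO side of each rests on the LPS DMSO group in which libraries 1 and 2 stand apart from library 3, and each passed with either of these subsets left out. With library 3 alone, the fit assumes that it varies like the other groups. Whether the 3 libraries carry the right labels was not tested, and if they do not, passing with either subset does not secure the difference.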

How the results depend on the processing

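The 4 genes called lower with defactinib in WT were 3 to 5 over the alternatives, except that DESeq2 called 2 of the 5 it gave an adjusted p, since its outlier filter left out Hexim1 and Mepce in every comparison. Without that filter, an alternative chosen after seeing the data, DESeq2 called all 4. The log2 fold change of Hexim1 there was -2.31 to -2.16 with each library left out and -2.25 with the replicate block, which changed no call. Scaling by library size alone moved the median of all genes by over 0.1, from 0.09 to 0.29 with defactinib in WT and from -0.01 to -0.38 with LPS in WT.

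Other counts moved by more than 1.5 times. They are of the 7 genes alone, and the share of all genes is given here only without the fold threshold. That share was 3.36% with defactinib in IRF5 KO, and 41.8% and 37.5% with LPS in WT and IRF5 KO. For LPS with defactinib against unstimulated it was 53.2% in WT and 53.4% in IRF5 KO. Between genotypes it was 15.3% unstimulated, 52.2% at LPS DMSO and 36.3% at LPS defactinib. With defactinib in IRF5 KO, where 0 of the 7 genes were called, DESeq2 without its filter called 1, dropping the fold threshold gave 1, leaving out IRF5 KO LPS DMSO replicates 1 and 2 gave 3, and leaving out each library gave 0 to 1. With LPS in WT (0 called), DESeq2 size factors, DESeq2 and DESeq2 without its filter gave 1, dropping the fold threshold gave 3, and leaving out each library gave 0 to 1. With LPS in IRF5 KO (2 called), no filter on low counts, a fit of the compared groups alone, a threshold inside the test and leaving out replicates 1 and 2 gave 0, dropping the fold threshold gave 6, and leaving out each library gave 0 to 3. For LPS with defactinib against unstimulated in WT (3 called), DESeq2 gave 0 and dropping the fold threshold gave 5. In IRF5 KO (4 called), library size alone and the threshold inside the test gave 2, and dropping the fold threshold gave 7. For WT against IRF5 KO, dropping the fold threshold gave 1 unstimulated, 2 at LPS DMSO and 5 at LPS defactinib, limma-voom gave 2 at LPS DMSO, and leaving out each library gave 0 to 2 there. The interaction with defactinib had 2 to 4 called, and that with LPS 0 to 2, with each library left out.

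Under library size alone the direction turned for Larp7 with defactinib (0.10 in WT, -0.064 in IRF5 KO and 0.17 for the interaction), Ccnt1 with LPS in WT (-0.19), Cdk9 for LPS with defactinib against unstimulated in IRF5 KO (-0.15), Hexim1 (-0.087) and Ccnt2 (-0.04) between unstimulated genotypes, and Cdk9 between genotypes at LPS DMSO (-0.17). A filter of 5 CPM in 3 libraries turned Larp7 with defactinib in IRF5 KO (-0.001). Without IRF5 KO LPS DMSO replicates 1 and 2, directions turned between genotypes at LPS DMSO for Hexim1 (-0.25), Ccnt2 (0.58) and Mepce (-0.36), for the interaction with defactinib for Mepce (0.47), and for that with LPS for Hexim1 (-0.28), Ccnt1 (0.17), Ccnt2 (0.50), Larp7 (0.26) and Mepce (-0.15).

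With each library left out, log2 fold changes crossed 0 for Larp7 with defactinib in WT (-0.23 to 0.094), and in IRF5 KO for Hexim1 (-1.40 to 0.51), Mepce (-1.73 to 0.19), Ccnt2 (-0.004 to 0.43) and Larp7 (-0.10 to 0.14). They also did for Hexim1 (-0.026 to 0.054) and Ccnt2 (-0.056 to 0.15) between unstimulated genotypes, Ccnt2 at LPS DMSO (-0.42 to 0.017), and Larp7 for the interactions with defactinib (-0.26 to 0.06) and LPS (-0.23 to 0.007). The cause was not tested beyond what leaving out these libraries shows. With defactinib in WT, the SEs of Ccnt2 and Larp7 (0.24 and 0.16 on the log2 scale) were about as large as their differences or larger.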

Other observations

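Genes of the other transcription lists were read in the interaction between genotype and defactinib too. It was called lower for 3 of 9 genes of the super elongation complex, 3 of 17 pausing and elongation factors and 2 of 11 other transcription kinases and cyclins, and higher for none of them. It was called lower for 1 and higher for 2 of 14 genes of 7SK and P-TEFb release, lower for 3 and higher for 2 of 8 short-lived mRNAs, lower for 1 and higher for 3 of 9 DNA repair genes, and for none of 12 polymerase subunits. Of all genes 12.3% were called lower and 10.5% higher. Without libraries 1 and 2 of IRF5 KO LPS DMSO the genes called lower were 4, 1 and 3 on the first 3 lists, and without library 3 they were 3, 6 and 3, with 1 gene of the super elongation complex called higher, against 9.22% and 18.8% of all genes called lower. In these fits 5 and 2 short-lived mRNAs were lower and 1 and 2 higher, 1 and 2 repair genes were lower and 2 and 3 higher, 1 and 2 genes of 7SK and P-TEFb release were lower and 2 higher in each, and 0 and 1 polymerase subunits were higher. All genes called higher were 9.89% and 12.8%. Ccnl1 (-2.54, SE 0.27, edgeR adjusted p = 4.18e-06) and Brd2 (-2.79, SE 0.15, adjusted p = 3.3e-09) had values beyond that of Cdk12, and were called at -2.35 and -2.71 without library 3 and at -3.00 and -2.95 without libraries 1 and 2. Brd2 was at 203, 149 and 181 CPM in WT LPS defactinib and at 663, 691 and 649 CPM in IRF5 KO LPS defactinib. These comparisons share the defactinib and DMSO libraries with those of the 7 genes.

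Myc was at 39.1, 40.4 and 41.7 CPM in WT unstimulated and at 1.74, 1.82 and 2.19 CPM in WT LPS DMSO, and in IRF5 KO LPS DMSO it was at 7.13, 8.06 and 27.0 CPM. Myc thus set library 3 of that group apart from libraries 1 and 2, as Hexim1 and Mepce did. It was named after its values were seen.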
